A study of Mus musculus with 3 samples.

Results

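The miR-183, miR-96 and miR-182 cluster comprises the mouse hairpins Mir183, Mir96 and Mir182, which are 3 of the 1158 hairpins searched. It was chosen by these hairpin names, and its reads are the small RNA inserts of 18 to 25 nt that matched a hairpin exactly or with 1 to 2 untemplated 3' bases, on either arm. These inserts comprised 71 distinct sequences and 1857 reads, 655 in the library labelled siSrf1 and 1202 in the library labelled siSrf2.

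The libraries were made from HL-1 cells, a contracting line derived from mouse atrial tumour cells, collected 48 h after lipid transfection with an siRNA. By their titles, the library labelled siSrf1 and the library labelled siSrf2 each come from cells given 1 of a pair of siRNAs against Srf, the gene of serum response factor. The sample titled siNon, for an unspecific siRNA, was not analysed here. Titles and siRNA entries disagree: Srf si2 is entered for the sample with the title siSrf1, and siNon for the one with the title siSrf2. Directions therefore refer to the libraries as labelled by title. By the titles, both libraries come from cells with siRNA against Srf, and no ratio below is relative to a control. By the entries, each ratio below would be cells with siRNA against Srf over cells with the unspecific siRNA. Which of these holds was not tested here. There was 1 library per group, so the differences have no replicate check, and all intervals cover counting error only. Copies of 1 molecule made by PCR cannot be recognised in these reads, so the intervals may be too narrow even for the counting of molecules. Srf mRNA was not measured in these small RNA libraries.

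A miRNA is cut from a hairpin precursor, first by Drosha and then by Dicer, into a duplex of a 5p and a 3p strand, of which usually 1 is kept by an Argonaute protein. The kept strand finds its target mRNAs mainly through its seed, the bases 2 to 8 from its 5' end, so a shift of the 5' end by a single base changes the seed. The miR-183, miR-96 and miR-182 cluster is known above all from sensory cells, such as photoreceptors and the hair cells of the inner ear, where mutations in the miR-96 seed cause hearing loss in mice and humans. It is less known from heart muscle.

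All 3 hairpins lie on the minus strand of chromosome 6, and each matched the NCBIM37 genome at 1 place without mismatch. Read in the direction of transcription, Mir183 (70 nt) lies first at chr6:30119668-30119737. Mir96 (106 nt) follows after 116 nt at chr6:30119446-30119551, and Mir182 (75 nt) after a further 3453 nt at chr6:30115918-30115992. No other GENCODE vM1 gene overlaps this span of 3820 nt, so the hairpins are intergenic in that annotation. The nearest protein-coding genes are Nrf1 at 12459 nt and Ube2h at 41551 nt. In RefSeq (GRCm38.p6, used for names and order only) the long non-coding RNA gene Mirc35hg spans all 3.

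The mature sequences of RefSeq (GRCm38.p6 table) show how closely the 5p arms resemble each other. They are given 5′ to 3′, with the seed in capitals:
miR-183-5p: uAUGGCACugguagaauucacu
miR-96-5p: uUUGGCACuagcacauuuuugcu
miR-182-5p: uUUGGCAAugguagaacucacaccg
miR-183-3p: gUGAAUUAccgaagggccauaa
miR-96-3p: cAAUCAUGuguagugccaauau
miR-182-3p: gUGGUUCUagacuugccaacu

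Counted from 1 at the 5' end, the seed of miR-96-5p differs from that of miR-183-5p by A2U, and the seed of miR-182-5p differs from that of miR-96-5p by C8A. miR-182-5p and miR-183-5p differ at both places (A2U and C8A). miR-96-5p and miR-182-5p share the bases 2 to 7, UUGGCA. The 5p arms of Mir183 and Mir182 further resemble each other after the seed, where both continue with ugguagaa. Of the 1581 mature mouse sequences searched, 1 other, miR-1271-5p, holds the seed of miR-96-5p, and none holds those of miR-183-5p or miR-182-5p. miR-1271-5p had 0 reads in either library, which allows up to 3 reads. The similarity did not mix the members' counts, since 0 of the 71 inserts matched a further hairpin.

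The depth was close to equal, with 14911499 reads in the library labelled siSrf1 and 14518157 in the library labelled siSrf2. Of these, 7748874 and 7013026 gave inserts of 18 to 25 nt, and 5287879 and 4603773 were assigned to miRNAs. All 5 markers of the labelled cell type, the cardiac muscle list, were present, led by miR-1a-3p with 625655 RPM (reads per 1000000 miRNA reads) in siSrf1 and 515131 in siSrf2. The lowest of them, miR-208a-3p, had 12.5 RPM in siSrf1 and 14.1 in siSrf2, less than the cluster. Among markers of other cell types, the epithelial list summed to 55 reads in siSrf1 and 39 in siSrf2, with miR-141-3p and miR-205-5p at 0. The list for neurons and sensory organs, where the cluster is best known, summed to 112 and 117 reads with 3 of 4 members detected and miR-211-5p at 0. Endothelial miR-126a-3p had 1574 and 1233 reads, the 3 blood miRNAs 249 and 225, and the liver miRNA miR-122-5p 37 and 60. The part of other cells in the cluster's reads was not tested. The cluster itself had 643 and 1186 reads on its mature arms, more than the epithelial or neuronal list.

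The cluster was present at a low level in both libraries and was lower in the library labelled siSrf1. Both arms of all hairpins together had 121.6 RPM in siSrf1 and 257.6 in siSrf2. The log2 ratio, siSrf1 minus siSrf2, was -1.08 (95% interval -1.22 to -0.94), a level 2.12-fold lower in siSrf1. All 3 arms of the cluster with enough reads for the size rule (miR-183-5p, miR-183-3p and miR-182-5p) were past it, lower in siSrf1. The rule asks for at least a 2-fold difference, an interval on 1 side of 0 and at least 50 reads summed over both libraries; over all miRNAs with that many reads, 65 of 261 (24.9%) were past it, every one of them lower in siSrf1. The whole distribution lay low, with a median log2 ratio of -0.41, quartiles of -1.0 and -0.08, and 209 of 261 ratios below 0. Relative to that median, the cluster's ratio was -0.67. With TMM factors, which shifted every ratio by 0.47, the median became 0.06 and the cluster's ratio -0.61, so the cluster was no longer past the rule. In either library, fewer cells with the cluster and less of it per cell cannot be told apart.

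miR-182-5p, the most abundant member, has been studied in sensory neurons and in tumour cells. It had 426 reads in the library labelled siSrf1 (exact Poisson 95% interval 387 to 468) and 780 in the library labelled siSrf2 (726 to 837). This is 80.6 RPM in siSrf1 and 169 in siSrf2, with a log2 ratio of -1.07 (-1.25 to -0.90). The intervals of the libraries do not overlap. miR-183-5p, whose hairpin lies first, had 178 reads in siSrf1 (153 to 206) and 326 in siSrf2 (292 to 363), or 33.7 and 70.8 RPM. Its log2 ratio was likewise -1.07 (-1.34 to -0.80), and the 2.10-fold difference was the same for both miRNAs to the second decimal. Among all measured miRNAs, 59 had a lower ratio than miR-182-5p and 60 a lower one than miR-183-5p, so both lie below the lower quartile.

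miR-96-5p, the member tied to hearing, was the least abundant 5p arm. It had 11 reads in siSrf1 (5.49 to 19.7) and 32 in siSrf2 (21.9 to 45.2), or 2.08 and 6.95 RPM. The log2 ratio was -1.70 (-2.88 to -0.71), but with 43 reads in all it stayed under the minimum of the size rule. Its wide interval includes the ratio of the other 5p arms.

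The 3p arms are the strands that are usually discarded. miR-183-3p had 20 reads in siSrf1 and 41 in siSrf2, with a log2 ratio of -1.22 (-2.08 to -0.43), past the size rule. That call was lost with TMM factors, at -0.74 (-1.61 to 0.04), with median-of-ratios factors at -0.80, with a total without miR-1a-3p at -0.84, and with exact matches only at -1.43, where its reads fell under the minimum. miR-182-3p had 8 reads in siSrf1 and 7 in siSrf2, with a log2 ratio of -0.02 (-1.67 to 1.69), an interval too wide to tell it from its 5p partner. miR-96-3p had 0 reads in both libraries.

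**Figure D1:**
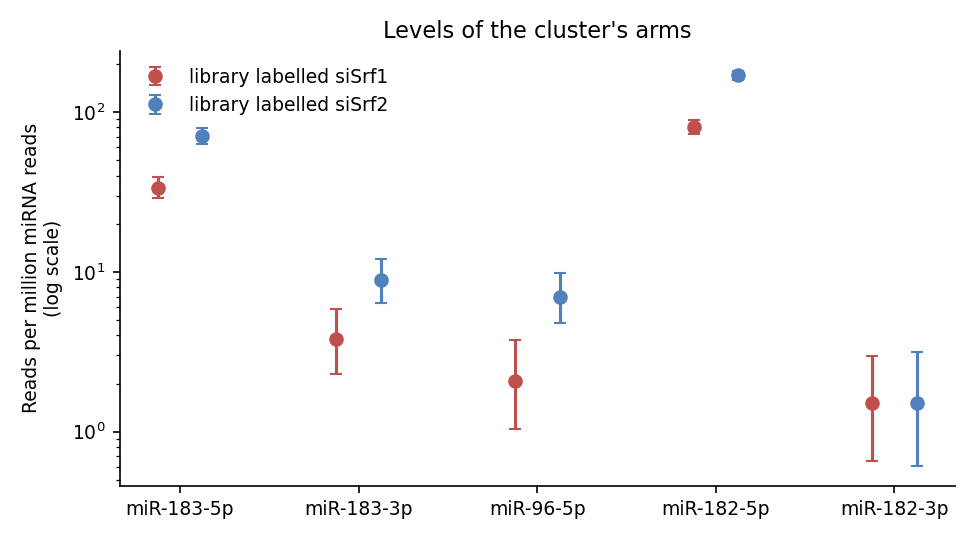
RPM (reads per 1000000 miRNA reads, log axis) of the 5 mature arms with reads, in the library labelled siSrf1 (red, left) and the library labelled siSrf2 (blue, right), with exact Poisson 95% intervals of the counts. The 5p arms and miR-183-3p sit lower in siSrf1, while miR-182-3p, with 8 and 7 reads, has overlapping intervals.

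**Figure D2:**
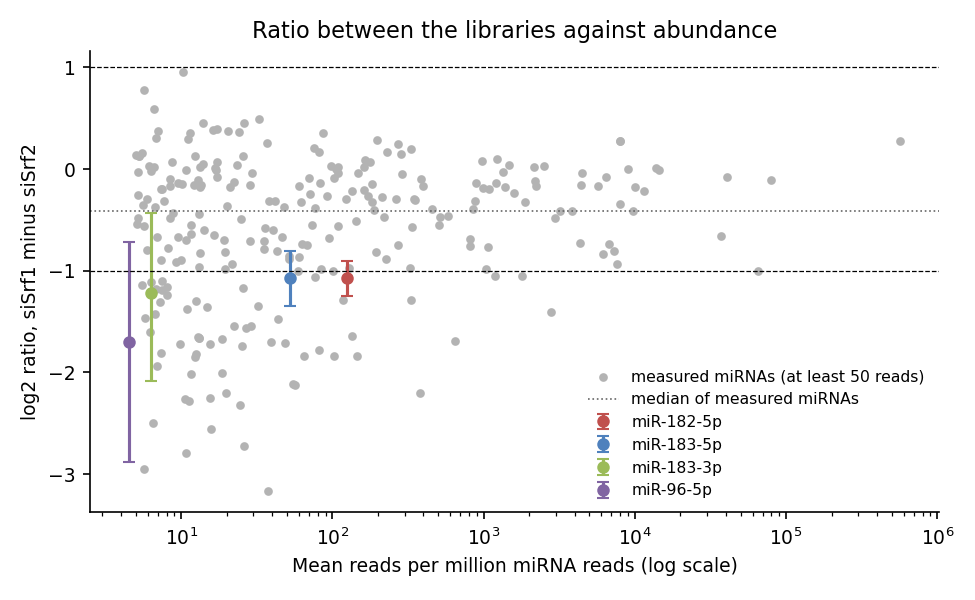
The log2 ratio (siSrf1 minus siSrf2) of the 261 measured miRNAs, in grey, against their mean RPM (log axis), with the cluster's arms in colour and their exact binomial 95% intervals. The dotted line is the median of -0.41 and the dashed lines mark 2-fold, and miR-182-5p and miR-183-5p lie just beyond the lower one at -1.07, among other miRNAs of their abundance.

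By mean abundance miR-182-5p was 90th and miR-183-5p 123rd of the 261. The miRNAs next to miR-182-5p varied widely in ratio: miR-345-3p lay at -1.64, miR-133b-3p at -0.97, miR-148b-3p at -0.29 and miR-351-5p at -1.29. The neighbours of miR-183-5p likewise held lower ratios, -2.12 for miR-187-5p and -2.11 for miR-1965-3p, and higher ones, -0.86 for miR-208a-5p and -0.88 for miR-125b-1-3p. miRNAs of like abundance thus differed in ratio in both directions. Of the 158 other miRNAs with at least 200 reads, the ratios nearest to that of the cluster were those of miR-187-3p at -1.06, the muscle miRNA miR-133a-3p at -1.05 and miR-744-5p at -1.05. This likeness is in 1 ratio between 2 libraries.

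The composition of the cluster was nearly the same in both libraries. miR-182-5p made up 66.3% of the cluster's reads in siSrf1 (exact Clopper-Pearson 95% interval 62.5 to 69.9) and 65.8% in siSrf2 (63.0 to 68.5). miR-183-5p made up 27.7% in siSrf1 (24.3 to 31.3) and 27.5% in siSrf2 (25 to 30.1). In this length range, reads of miR-182-5p outnumbered those of miR-183-5p 2.39 to 1 in each library. miR-96-5p made up 1.71% in siSrf1 (0.857 to 3.04) and 2.70% in siSrf2 (1.85 to 3.79), with overlapping intervals. Reads of miR-182-5p therefore outnumbered those of miR-96-5p 38.7 to 1 in siSrf1 and 24.4 to 1 in siSrf2. The length range lowers the part of miR-182-5p, which over 16 to 28 nt had 550 reads in siSrf1 and 953 in siSrf2. With that wider range miR-183-5p stayed at 178 and 326 reads, and miR-96-5p at 11 and 32. Read counts of different miRNAs also carry differences in ligation and amplification, so these proportions are those of reads and not of molecules.

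The spread between the members lay toward the wide end among clusters. In 10 other clusters with a spread in both libraries, the most-read over the least-read member ranged between 1.48 and 54.4 in siSrf1, with a median of 7.62, and between 1 and 56.8 in siSrf2, with a median of 9.13. In 3 of them in siSrf1 and 2 of them in siSrf2 the spread was larger than here. Several of them, such as Mir23a with Mir27a, were listed with only 2 hairpins, against 3 here. Hairpins whose mature sequence comes from more than 1 locus, such as those of miR-24, were left off the list. A listed cluster can therefore be a part of the whole one. The spread here rests on miR-96-5p, with 11 reads in siSrf1 and 32 in siSrf2. The Mir106b, Mir93 and Mir25 cluster had 50.1 in siSrf1 and 53.1 in siSrf2, and Mir191 with Mir425 had 54.4 and 56.8. Ratios between the libraries were not always shared within a cluster: the members of Mir143 and Mir145a differed by 1.86 on the log2 scale, and those of Mir322, Mir503, Mir351 and Mir542 by 0.95. At the other end, Mir23a and Mir27a differed by 0.04, which like the closeness of miR-182-5p and miR-183-5p is a description of 1 pair of libraries.

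The 5p arm dominated every hairpin. Of the reads on the mature arms, it held 89.9% for Mir183 in siSrf1 (84.8 to 93.7) and 88.8% in siSrf2 (85.2 to 91.9). It held 98.2% for Mir182 in siSrf1 (96.4 to 99.2) and 99.1% in siSrf2 (98.2 to 99.6). Mir183 thus kept a larger 3p share than Mir182 in both libraries, with intervals that do not overlap. All Mir96 reads on a mature arm were 5p, 11 in siSrf1 and 32 in siSrf2. At that depth the interval of the 5p share reaches down to 71.5% in siSrf1 and 89.1% in siSrf2. The 3 reads taken as the limit of a count of 0 would be 27.3% and 9.38% of those totals.

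**Figure D3:**
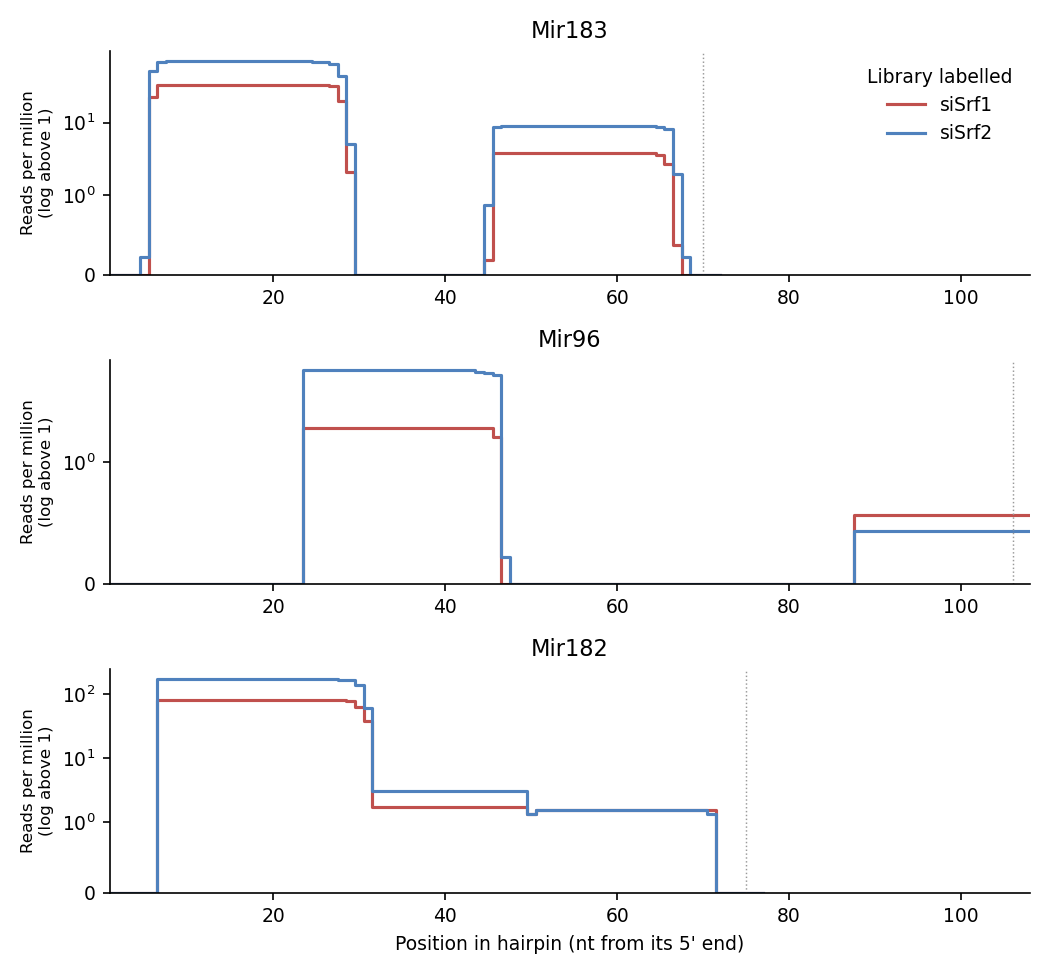
RPM of the reads that cover each base of the hairpins Mir183, Mir96 and Mir182, by position from the hairpin's 5' end, in the library labelled siSrf1 (red) and the library labelled siSrf2 (blue); the vertical axis is logarithmic above 1 and linear below, and the dotted line marks the end of the RefSeq hairpin. Coverage forms the 5p block and the lower 3p block of Mir183, 1 block on Mir96 with a few reads past its 3p arm, and on Mir182 the 5p block followed without a gap by low coverage of the loop and the 3p arm.

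miR-182-5p was read mainly as a nested set of inserts with 1 fixed 5' end and several 3' ends. These inserts are shown with the bases after the 23rd in capitals, as DNA, because they carry the clearest difference in form between the libraries:
23 nt: tttggcaatggtagaactcacac
24 nt: tttggcaatggtagaactcacacC
25 nt: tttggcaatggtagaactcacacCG
26 nt: tttggcaatggtagaactcacacCGG
26 nt with an added T: tttggcaatggtagaactcacacCGT
26 nt with an added A: tttggcaatggtagaactcacacCGA

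The 24 nt form had 130 reads in siSrf1 and 342 in siSrf2, and the 25 nt form, which is the RefSeq mature sequence, had 198 in siSrf1 and 277 in siSrf2. The most frequent form was therefore 25 nt long in the library labelled siSrf1 and 24 nt long in the library labelled siSrf2. Of the reads of these forms together, the 25 nt form held 60.4% in siSrf1 (54.8 to 65.7, of 328) and 44.7% in siSrf2 (40.8 to 48.8, of 619), and the intervals do not overlap. The log2 ratio of the 24 nt form was -1.59 (-1.90 to -1.30), past the size rule, while that of the 25 nt form was -0.68 (-0.95 to -0.42), that of the 23 nt form -0.90 (-1.34 to -0.48) and that of the templated 26 nt form -0.69 (-1.21 to -0.18). The ratio of miR-182-5p between the libraries thus depended on which 3' end was counted.

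miR-182-5p was also long. Over inserts of 16 to 28 nt its mean length was 24.6 nt in siSrf1 and 24.5 nt in siSrf2, the longest of the 177 miRNAs with at least 50 reads in each library, whose median was 22.0 nt in both. Inserts over 25 nt made up 22.2% of its reads in siSrf1 (18.8 to 25.9) and 18.2% in siSrf2 (15.8 to 20.8), the highest share of the 177, and the median share was 0. These reads, 122 in siSrf1 and 173 in siSrf2, lie outside the range of 18 to 25 nt used for the levels above, and their log2 ratio was -0.70 (-1.05 to -0.36). Over 16 to 28 nt the ratio of the whole arm was -0.99, just short of 2-fold. The longer mean of miR-182-5p in siSrf1, by 0.10 nt, ran against the other miRNAs, whose mean length differed by -0.05 nt at the median. Of the 177, 50 were longer in siSrf1 and 127 in siSrf2, and 13 had a larger difference than miR-182-5p. The mean of miR-183-5p differed by -0.09 nt.

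**Figure D4:**
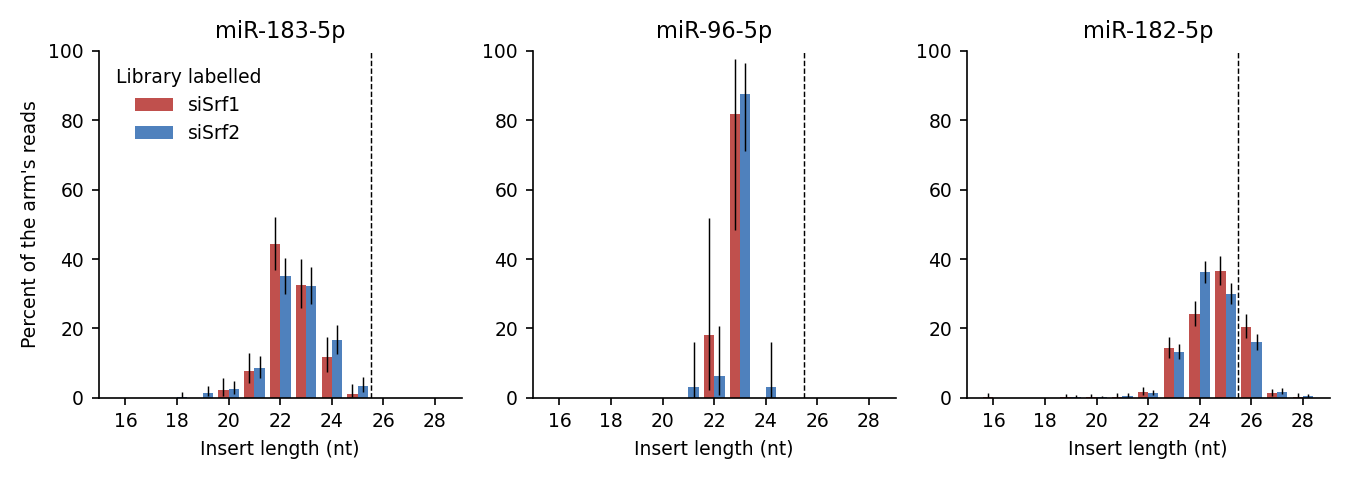
Percent of each 5p arm's reads (inserts of 16 to 28 nt) by insert length in nt, with exact Clopper-Pearson 95% intervals, for the library labelled siSrf1 (red, left bars) and the library labelled siSrf2 (blue, right bars); the dashed line marks the upper limit of 25 nt used for the levels. miR-183-5p peaks at 22 nt and miR-96-5p at 23 nt in both libraries, while miR-182-5p peaks at 25 nt in siSrf1 and 24 nt in siSrf2 and continues past the limit.

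Untemplated bases on miR-182-5p depended on its 3' end. With all inserts of 16 to 28 nt, 12.9% of its reads in siSrf1 (10.2 to 16.0) and 10.5% in siSrf2 (8.62 to 12.6) carried 1 or 2 untemplated 3' bases, against a median of 16.4% and 16.7% over the 177 miRNAs. Where the templated part ended at the RefSeq end, 58 of 256 reads were tailed in siSrf1, or 22.7% (17.7 to 28.3), and 71 of 349 in siSrf2, or 20.3% (16.2 to 25). Where it ended 1 nt short of the RefSeq end, the share was 2.26% in siSrf1 and 3.12% in siSrf2. Where it ended 1 nt past the RefSeq end, the share was 6.56% in siSrf1 (1.82 to 15.9, of 61) and 13.0% in siSrf2 (6.93 to 21.7, of 92), and the interval in siSrf2 overlaps that of the RefSeq end. A tail thus was commoner on the RefSeq end than on the end 1 nt before it in both libraries. The tails at the RefSeq end began with A in 29 reads and T in 28 reads in siSrf1, and with A in 29 and T in 41 in siSrf2. An added base that equals the next base of the hairpin is counted as templated, so a G added at the RefSeq end cannot be seen. At the end 1 nt past it the next base is U, so an added U (T in the reads) cannot be seen there. The shares of these ends are therefore not fully comparable.

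miR-183-5p, unlike miR-182-5p, had a split 5' end. Its most frequent inserts, with the bases 2 to 8 in capitals, began either at the RefSeq start or 1 nt inside it:
RefSeq start, 22 nt: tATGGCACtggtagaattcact
RefSeq start, 23 nt: tATGGCACtggtagaattcactg
RefSeq start, 24 nt: tATGGCACtggtagaattcactga
1 nt inside, 22 nt: aTGGCACTggtagaattcactg
1 nt inside, 21 nt: aTGGCACTggtagaattcact

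At the RefSeq start, the 22 nt insert had 50 reads in siSrf1 and 77 in siSrf2, the 23 nt insert 39 in siSrf1 and 80 in siSrf2, and the 24 nt insert, whose last A is untemplated, 12 in siSrf1 and 29 in siSrf2. Starting 1 nt inside, the 22 nt insert had 28 reads in siSrf1 and 35 in siSrf2, and the 21 nt insert 10 in siSrf1 and 15 in siSrf2. In the form that begins 1 nt inside, the seed is UGGCACU and no longer AUGGCAC, and none of the other 1581 mature sequences holds it. Its share was 33.1% of the reads in siSrf1 (26.3 to 40.6, 59 of 178) and 26.4% in siSrf2 (21.7 to 31.5, 86 of 326), with overlapping intervals. The share that began at the RefSeq start was 66.9% in siSrf1 (59.4 to 73.7) and 72.7% in siSrf2 (67.5 to 77.5). By comparison, the median share at the commonest 5' end over the 177 miRNAs was 98.5% in siSrf1 and 98.6% in siSrf2, and 15 and 16 of them had a lower share than miR-183-5p. miR-182-5p began at its RefSeq start in 100% of reads in siSrf1 and 99.7% in siSrf2. The log2 ratio was -1.19 (-1.52 to -0.87) for the form at the RefSeq start and -0.74 (-1.25 to -0.25) for the form 1 nt inside, and these intervals overlap.

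The 3' end of miR-183-5p lay most often 1 nt past the RefSeq end, in 53.4% of reads in siSrf1 and 54.9% in siSrf2, and at the RefSeq end in 35.4% and 29.8%. An untemplated tail was present on 18% of reads in siSrf1 (12.6 to 24.4) and 21.2% in siSrf2 (16.9 to 26), near the medians of 16% and 16.5% over the 177 miRNAs. A single A alone made up 12.4% in siSrf1 and 14.1% in siSrf2, where the medians were 5.88% and 5.96% and 29 and 17 miRNAs had a higher share. A single untemplated T was rare, at 0.562% in siSrf1 and 0.307% in siSrf2. Tailing depended on the end here as well. On molecules that ended 1 nt past the RefSeq end, 28 of 95 reads carried a tail in siSrf1, or 29.5% (20.6 to 39.7), and 63 of 179 in siSrf2, or 35.2% (28.2 to 42.7). On those that ended at the RefSeq end the share was 4.76% in siSrf1 and 5.15% in siSrf2. The tails 1 nt past the RefSeq end began with A in 26 of 28 reads in siSrf1 and in all 63 in siSrf2. The hairpin's next base there is U, so an added U would count as templated.

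**Figure D5:**
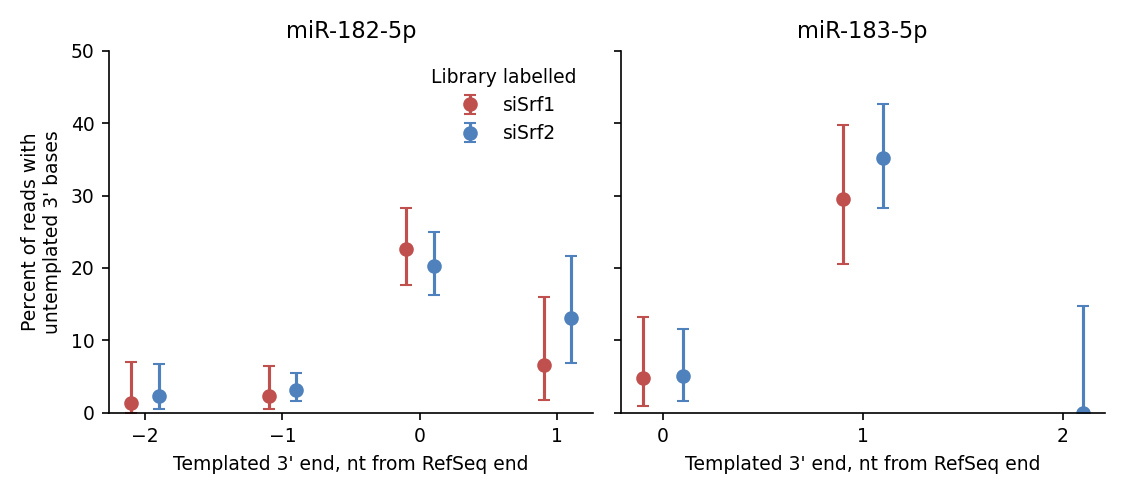
Percent of reads with untemplated 3' bases, by the position of the templated 3' end in nt from the RefSeq end, for miR-182-5p (left) and miR-183-5p (right), in the library labelled siSrf1 (red) and the library labelled siSrf2 (blue), with exact Clopper-Pearson 95% intervals; ends with fewer than 20 reads in a library are not drawn. The share is highest at the RefSeq end of miR-182-5p (22.7% and 20.3%), where in siSrf2 its interval overlaps that of the next end, and 1 nt past the RefSeq end of miR-183-5p (29.5% and 35.2%).

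The remaining arms had few reads, and each is shown by its most frequent insert, with the bases 2 to 8 in capitals:
miR-183-3p: tGAATTACcgaagggccataa
miR-96-5p: tTTGGCACtagcacatttttgct
miR-182-3p: gTGGTTCTagacttgccaacta

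miR-183-3p differed from its RefSeq entry at the 5' end, beginning 1 nt inside the RefSeq start in 19 of 20 reads in siSrf1 and 36 of 41 in siSrf2. Its seed was therefore mostly GAAUUAC in place of UGAAUUA. The insert above had 9 reads in siSrf1 and 21 in siSrf2. miR-96-5p was uniform, with all 11 reads in siSrf1 and all 32 in siSrf2 at the RefSeq start, and 81.8% and 87.5% at the RefSeq end. The insert of miR-182-3p, which extends 1 nt past its RefSeq end, had 7 reads in siSrf1 and 6 in siSrf2.

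In the predicted fold of each hairpin (RNAfold), the 25 nt form of miR-182-5p and the most frequent 3p insert of Mir182 paired with an overhang of 2 nt at both ends, the form that Drosha and Dicer usually leave. The 24 nt form, the most frequent in siSrf2, is 1 nt shorter at the loop side. For Mir183, the 22 nt miR-183-5p insert with the RefSeq sequence and the most frequent 3p insert left 2 nt at the loop side and 1 nt at the base. The templated 3' end of miR-183-5p lay 1 nt further toward the loop in 53.4% of reads in siSrf1 and 54.9% in siSrf2. The predicted free energy was -26.2 kcal/mol for Mir183, -47.9 for Mir96 and -29.9 for Mir182.

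A few inserts came from outside the mature arms. The loop of Mir182 gave 9 reads in siSrf1 and 14 in siSrf2, and the flank behind the 3p arm of Mir96 gave 3 and 2:
Mir182 loop: gtaaggtaatgggacccg
Mir96 3' flank: gggaaaagcgggctgctgcgg

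The main loop insert, with 9 reads in siSrf1 and 13 in siSrf2, begins at the base after the 25 nt form of miR-182-5p and ends at the base before miR-182-3p, and so is the whole piece between both arms. miR-182-3p had 8 reads in siSrf1 and 7 in siSrf2. The flank insert begins at the base after the RefSeq end of miR-96-3p. The loop of Mir183 and that of Mir96 gave no insert in this length range.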

How the data were processed

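Per the labels' protocols, small RNA was prepared with an Illumina kit and sequenced on a Genome Analyzer. For every distinct sequence of 36 nt the authors deposited its read count, not normalized and with the 3' adapter still attached. The authors' aligner, build and filters were not given in the sources used here. The insert was the part of a read before the adapter, which was found by its first 8 nt (no mismatch) or by 4 nt or more of it at the end of the read. Inserts of 18 to 25 nt were matched, exactly or with 1 to 2 untemplated 3' bases, to 1158 hairpins: 1005 of RefSeq and 153 further named ones of GENCODE vM1 (NCBIM37). A further 911 unnamed GENCODE genes were not used. An insert went to an arm if at least 50% of it lay on the mature sequence, and inserts with several matches were shared equally. Assigned miRNA reads were 68.2% of such inserts in siSrf1 and 65.6% in siSrf2.

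Counts were scaled to the miRNA total. Log2 ratios (siSrf1 minus siSrf2) use a pseudocount of 0.5 reads and exact binomial 95% intervals, given the summed count. Shares have exact Clopper-Pearson and single counts exact Poisson intervals. With 1 library per group no p-value was computed. Length and end shares use miRNAs with at least 50 reads in each library. Tools were Python 3.11.15, numpy 2.4.6, scipy 1.17.1, numba 0.67.0, matplotlib 3.10.9, RNAfold 2.7.2, R 4.3.3, edgeR 4.0.16 and DESeq2 1.42.0 (both for scaling factors only), and counting was tested on simulated data.

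Named miRNAs are all arms of the cluster, miRNAs that share a 5p seed, the neighbours in abundance (2 above and 2 below), the 3 nearest in ratio, a list of other clusters, and the cell type markers. The miRNA cluster, the lists and the rules were chosen with earlier results of these data known. Of the 13 other clusters listed, 3 were not compared. Mir200c with Mir141 and Mir34b with Mir34c had a member without reads in siSrf1. Mir195a with Mir497a was left out because no hairpin searched was found under the name Mir497a. The miRNA miR-497a-5p itself was detected, with 864 reads in siSrf1 and 741 in siSrf2. Alternatives were other scalings, read minimums, insert lengths, adapter lengths, mismatches, pseudocounts, and the treatment of single or shared sequences.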

Additional observations from a re-analysis of the deposited data

Results flagged for a closer look

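Reads that begin with the first 18 nt of the most frequent insert of an arm, but hold no adapter match, are in none of the levels of the report and enter only the alternative that counts reads by their first 18 nt. They exceeded the 3 reads that a count of 0 allows for each 5p arm. They did not for the 3p arms, with 1 in siSrf1 and 3 in siSrf2 for miR-183-3p and 1 in siSrf1 and 2 in siSrf2 for miR-182-3p. For miR-182-5p there were 46 such reads in siSrf1 and 75 in siSrf2, or 7.58% of the 607 and 7.19% of the 1043 reads with that beginning. For miR-183-5p there were 21 in siSrf1 and 31 in siSrf2, or 14.8% of 142 and 11.1% of 279. For miR-96-5p there were 4 in siSrf1 and 6 in siSrf2, of 15 and 40. Over the whole libraries, 32.6% of reads in siSrf1 and 31.8% in siSrf2 held no adapter match.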

How the results depend on the processing

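Of 16 alternatives, 1 was chosen after seeing the data. Wherever they gave a value for the cluster and its 5p arms, all 59 log2 ratios stayed below 0. Those under another read minimum repeat the main ratio, because a minimum changes only which miRNAs are called. The cluster and both abundant 5p arms lie close to 2-fold, and other scalings put them inside it. The cluster's ratio was -0.61 under TMM scaling, -0.67 under median-of-ratios scaling, -0.98 with the total of all inserts and -0.71 with a total without miR-1a-3p. In the same order, miR-182-5p was at -0.60, -0.66, -0.97 and -0.70, and miR-183-5p at -0.60, -0.66, -0.96 and -0.70. miR-182-5p was also short of 2-fold at -0.99 with inserts of 16 to 28 nt and at -0.98 with reads counted by their first 18 nt, and miR-183-5p at -0.98 with 12 nt of adapter. miR-182-5p was lowest at -1.36 with 12 nt of adapter, which cannot be found after an insert of 25 nt in a read of 36 nt. miR-96-5p came past the rule at -1.70 with a minimum of 10 reads and at -1.59 when counted by its first 18 nt. Of all miRNAs, 42 were past the rule with TMM factors (3 higher and 39 lower in siSrf1), 104 with a minimum of 10 reads and 18 with a minimum of 500. miR-182-3p, at -0.02, lay above 0 with some scalings, up to 0.45 with TMM factors. The share of 25 nt ends of miR-182-5p was 65.8% in siSrf1 and 49.6% in siSrf2 with tailed reads placed by their templated end (the alternative chosen after seeing the data). Where not stated, the cause was not tested. With 1 library per group, shares below a few percent and the ratios of miR-96-5p and the 3p arms of Mir96 and Mir182 are limited by depth. No paired analysis was possible because there is only 1 library to a group.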
